A study of Mus musculus with 26 samples.

Results

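A set of 9 genes whose transcripts are read as signs of antigen receptor signal in thymocytes were followed in CD4 and CD8 double positive (DP) cells of 3 mouse tissues. They were chosen by symbol: the 3 EGR genes Egr1, Egr2 and Egr3, the 3 NR4A genes Nr4a1, Nr4a2 and Nr4a3, and the 3 genes of membrane proteins Cd69, Cd5 and Itm2a. All 9 were among the 13765 genes of the table. The cells came from the aortic arch, the adipose tissue of the mediastinum and the thymus. The mice were C57BL/6J females at 8 weeks of age, for which the labels give neither a treatment nor a genetic alteration. Each tissue was pooled from 5 mice, lots of 400 viable cells that stained for CD4 and CD8b but not for the T-cell receptor (TCR) were sorted, and libraries were made from 200 cells. There were 4 pools per tissue, each with 1 to 3 libraries that had been joined into a single value per gene, so n = 4 pools per tissue throughout. Arch and adipose tissue were digested to free the cells, and digestion is not stated for thymus, so tissue and digestion cannot be told apart in any comparison with thymus.

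DP thymocytes are the stage at which a newly made T-cell receptor is tested against self peptides. Receptor signal reaches the nucleus through the MAP kinase and calcium routes and switches on immediate early genes within a short time. The EGR genes encode zinc finger transcription factors that are induced through the MAP kinase route and take part in positive selection. The NR4A genes encode orphan nuclear receptors, of which Nr4a1 (Nur77) is induced by strong receptor signal and is linked to the death of self-reactive thymocytes. NR4A genes also respond to cyclic AMP and to stress in many cell types. CD69 and CD5 appear on the surface of thymocytes that have been signalled, CD5 in proportion to signal strength, and Itm2a, an integral membrane protein, is induced at the DP stage during positive selection. These statements are background.

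Recovered reads per pool ranged from 11577253 to 34599519, and 1 read was worth 0.566 to 1.90 of the deposited normalised counts. The summed DP thymocyte markers (12 of 12 present in the table, none at 0 reads in any pool) lay at 19625 to 22546 CPM (reads scaled to a common total) in thymus, 6415 to 11493 in adipose tissue and 7291 to 8675 in arch. Markers of B cells, macrophages, smooth muscle or fibroblasts stood high in 3 pools. Adipose pool 1 had B-cell markers at 2235 CPM (1773 without Ly6d, which thymocytes also transcribe) and macrophage markers at 317 CPM. Arch pool 2 had smooth muscle markers at 1897 CPM and macrophage markers at 1068 CPM, and arch pool 4 had fibroblast markers at 6492 CPM. In arch pool 1 smooth muscle markers were lower, at 66.6 CPM, but above every thymus pool. In the thymus pools the genes Cd79a, Csf1r and C1qa were at 0 and smooth muscle markers summed to at most 3.31 CPM. Other members of these lists were present there. B-cell markers without Ly6d summed to 71.0 to 214 CPM in thymus, against 32.8 to 183 in adipose pools 2 to 4. Macrophage markers reached 16.2 CPM in thymus. Natural killer and innate lymphoid markers without Gzma were at 15.6 to 61.3 CPM in adipose pools, 0.691 to 35.8 in arch and at most 0.0742 in thymus. In bulk libraries such as these, fewer cells that transcribe a gene and less RNA of it per cell cannot be told apart. Nothing in the labels says that same-numbered pools of different tissues came from the same mice, and p-values measure the spread between pools of 5 mice. In the main fit that spread is pooled over the 3 tissues, also where only 2 of them are compared.

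Promoter sequences of the NR4A genes and of Egr2 are shown first, since the 3 NR4A genes share a sequence feature there and Egr2 serves as the EGR gene for comparison. RefSeq start sites (GRCm38.p6) were matched for 6 of the 9 genes: Egr2, Nr4a1, Nr4a2, Nr4a3, Cd5 and Itm2a. The 4 stretches upstream of the start are printed 5′ to 3′ on the strand of the gene, with the 5-base core of the cyclic AMP response element in capitals (TGACG, or CGTCA where it lies on the other strand). Nr4a1 is at chr15:101266596-101266845 (plus strand, 250 bases up to the base before the start). Nr4a2 is at chr2:57124004-57124253 (minus strand, 250 bases). Nr4a3 is at chr4:48045055-48045152 (plus strand, 98 bases, positions -250 to -153). Egr2 is at chr10:67537619-67537868 (plus strand, 250 bases). The Egr2 start used is 1 of 5 listed starts and coincides with a GENCODE start. None of the printed stretches overlaps an annotated exon.
Nr4a1: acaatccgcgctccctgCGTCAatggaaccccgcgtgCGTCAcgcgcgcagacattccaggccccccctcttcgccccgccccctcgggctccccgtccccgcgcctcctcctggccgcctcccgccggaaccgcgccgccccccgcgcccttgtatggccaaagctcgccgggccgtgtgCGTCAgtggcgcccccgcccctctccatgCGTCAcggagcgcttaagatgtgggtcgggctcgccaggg
Nr4a2: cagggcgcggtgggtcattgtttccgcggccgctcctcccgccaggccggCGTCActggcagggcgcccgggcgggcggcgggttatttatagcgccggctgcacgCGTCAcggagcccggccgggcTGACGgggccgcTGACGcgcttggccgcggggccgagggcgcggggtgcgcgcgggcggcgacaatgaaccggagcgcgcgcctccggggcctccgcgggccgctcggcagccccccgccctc
Nr4a3: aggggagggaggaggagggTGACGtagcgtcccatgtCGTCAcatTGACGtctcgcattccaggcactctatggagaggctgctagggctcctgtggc
Egr2: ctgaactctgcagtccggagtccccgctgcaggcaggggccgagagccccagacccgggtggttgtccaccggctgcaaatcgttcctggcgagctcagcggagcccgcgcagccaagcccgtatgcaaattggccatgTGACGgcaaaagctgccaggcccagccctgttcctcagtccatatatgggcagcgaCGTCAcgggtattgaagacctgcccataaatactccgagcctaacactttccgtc

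The core TGACG (letters searched on both strands, 250 bases upstream) occurred 4 times before each NR4A gene. In Nr4a1 it began at -233, -213, -69 and -40 from the start, in Nr4a2 at -200, -144, -123 and -111, and in Nr4a3 at -231, -213, -205 and -147, the last of these lying beyond the printed stretch. Egr2 held 2 cores, Itm2a held 1 and Cd5 held 0. Among 32851 promoters of the same length 17.8% held at least 1 core and 0.688% held 3 or more. No window of the 6 genes held the full element TGACGTCA, which 1.55% of all promoters had, the AP-1 site TGANTCA (6.75%), the NR4A monomer site AAAGGTCA (1.34%) or a heat shock element (0.466%). The site bound by EGR proteins, GCGNGGGCG, occurred once in Nr4a1 (-60 to -52) and once in Nr4a2 (-74 to -66), and in 4.70% of all promoters. Egr2 held a CArG box, the element of serum response factor, at -72 to -63, as did 1.47% of all promoters. The EGR and CArG matches overlapped no core. The NR4A windows were 74.4%, 80% and 63.6% G and C for Nr4a1, Nr4a2 and Nr4a3, against a median of 52.4% over all promoters. These are letter matches, and no binding was measured.

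**Figure D1:**
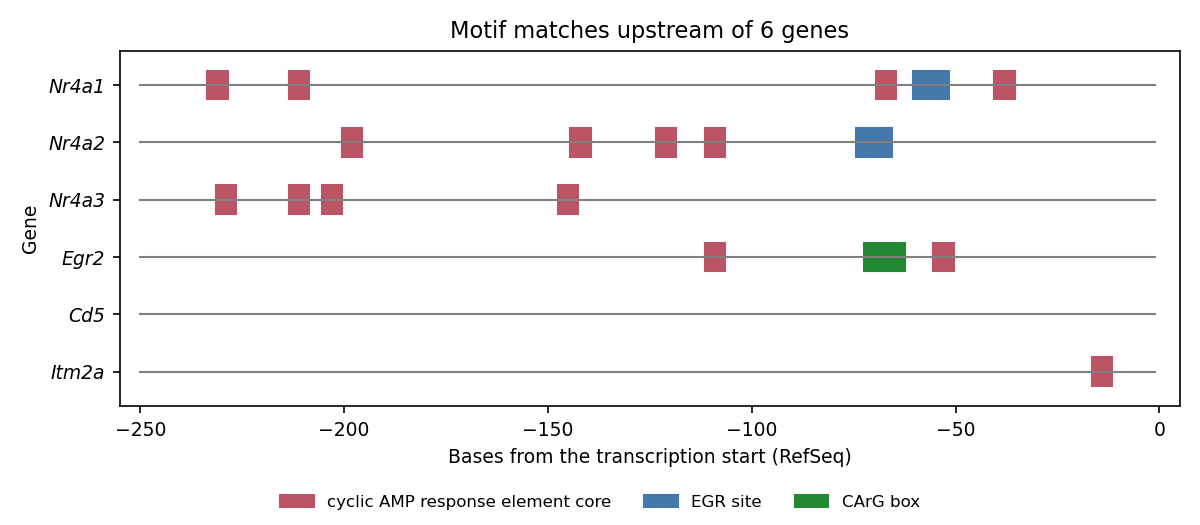
Motif matches in the 250 bases upstream of the RefSeq start of 6 genes. The x axis is the distance in bases from the start, each grey line is a promoter, and boxes are matches on either strand. The 3 NR4A genes have 4 core matches each, Egr2 has 2, Itm2a 1 and Cd5 0.

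Nr4a1 was higher in both tissues outside the thymus, and Nr4a2 in arch. Nr4a1 (chromosome 15, 101254269 to 101274795 on GRCm38) had 4498, 1996, 1.46 and 395 normalised counts in thymus pools 1 to 4. In adipose pools 1 to 4 it had 20685, 9521, 11515 and 8571, and in arch pools 1 to 4 it had 35068, 13679, 19383 and 19562. Every adipose and arch pool lay above every thymus pool, and thymus pool 3 held a single Nr4a1 read. That pool had the fewest recovered reads in thymus (13473516) and the fewest genes detected of all pools (9091). The part of depth in its Nr4a1 value was not tested. The means (± SD, n = 4) were 1723 ± 2041 for the thymus, 12573 ± 5545 for adipose tissue and 21923 ± 9179 for arch, so the ratio of means to thymus was 12.7 in arch and 7.30 in adipose tissue. On the log2(normalised count + 20) scale Nr4a1 was higher by 5.28 ± 1.02 (SE) in arch than in thymus (limma, adjusted p = 0.00326) and by 4.47 ± 1.02 in adipose tissue than in thymus (limma, adjusted p = 0.0186). The exact two-sided permutation test gave p = 0.0286 for both, the smallest that 4 pools against 4 allow. These log2 changes correspond to more than the ratios of means because thymus pool 3 was near 0. Without thymus pool 3 the changes were 3.73 in arch and 2.92 in adipose tissue, and without thymus pool 1 they were 6.30 and 5.50.

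The arch call of Nr4a1 was lost when edgeR was run on the recovered reads (log2 change 3.67, adjusted p = 0.0746) and held in the other 9 alternatives, whose adjusted p together with edgeR's ran from 0.000111 to 0.0746, and without any single pool. The adipose call held in 5 of 10 alternatives (adjusted p 0.00143 to 0.243) and in 5 of 8 fits that left out a pool, and was lost without thymus pool 4 (0.0507), adipose pool 1 (0.0733) or adipose pool 3 (0.0528).

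Nr4a2 (chromosome 2, 57106830 to 57124003), the family member best known from dopamine neurons, had reads in 1 of 4 thymus pools, 3 of 4 adipose pools and 4 of 4 arch pools. Thymus pools 1 to 4 had 546, 0, 0 and 0 normalised counts, adipose pools 2906, 0, 879 and 1154, and arch pools 6569, 2538, 5513 and 4627. All arch pools lay above all thymus pools, whereas adipose pool 2, made from 1 library, lay at 0 with 3 thymus pools. Arch exceeded thymus by 6.63 ± 1.33 on the log2 scale (limma, adjusted p = 0.00441) with a ratio of means of 35.2. The adipose excess of 3.43 ± 1.33 did not pass (limma, adjusted p = 0.242), although it did without adipose pool 2 (4.98, adjusted p = 0.0113). The arch change was 7.83 without thymus pool 1. The arch call was kept without any single pool and lost with edgeR (5.14, adjusted p = 0.206) and DESeq2 (5.15, adjusted p = 0.204), in a range of 0.000451 to 0.206 over 10 alternatives.

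Nr4a3 (chromosome 4, 48045153 to 48086447), the third orphan receptor of the family, was scarce everywhere. Thymus pools 1 to 4 had 35.1, 0, 0 and 0 normalised counts, adipose pools 260, 7.26, 245 and 107, and arch pools 234, 622, 34.7 and 20.2. Thymus pool 1 overlapped the lowest pools of the other tissues. The log2 changes of 2.42 ± 1.12 in arch (limma, adjusted p = 0.207) and 2.30 ± 1.12 in adipose tissue (0.403) against thymus did not pass, with 95% intervals of 0.07 to 4.76 and -0.05 to 4.65. No thymus pool reached the 100 normalised counts used in the filter on low values, so this gene was tested only because of its values outside the thymus.

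Per kilobase of exon, Nr4a1 made up 80.2% to 85.8% of the summed NR4A level in the arch pools and 88.6% to 99.96% in the adipose pools. Nr4a2 made up 13.5% to 19.7% in arch pools and 0% to 10.8% in adipose pools. In thymus the share of Nr4a1 was 90.1% in pool 1 and 100% in the others, where Nr4a2 and Nr4a3 had no reads. The 100% of thymus pool 3 rests on 1 Nr4a1 read. Each arch pool thus held a larger share of Nr4a2 than any adipose pool. This is a description, with no test.

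Of the EGR genes, Egr1 was lower in adipose tissue than in thymus, and no other difference passed. Egr1 (chromosome 18, 34859823 to 34864984) had the highest mean of the EGR genes in each tissue, though Egr2 exceeded it in adipose pool 4 (195 against 58.4). Egr1 had 7121, 5407, 2271 and 1990 normalised counts in thymus pools 1 to 4, 1797, 529, 116 and 58.4 in adipose pools and 758, 2024, 526 and 1622 in arch pools. All adipose pools lay below all thymus pools, while arch pool 2 lay just above the lowest thymus pool. The means (± SD, n = 4) were 4197 ± 2490 for the thymus, 625 ± 809 for adipose tissue and 1232 ± 708 for arch. Egr1 was lower in adipose tissue than in thymus by a log2 change of -3.51 ± 0.81 (limma, adjusted p = 0.0199), with a ratio of means of 0.149. The arch change of -1.74 ± 0.81 did not pass (limma, adjusted p = 0.209), with a 95% interval of -3.44 to -0.04.

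Within adipose tissue and arch, Egr1 was highest in the 3 pools high in B-cell, macrophage, smooth muscle or fibroblast markers. It had 1797 in adipose pool 1, 2024 in arch pool 2 and 1622 in arch pool 4, against 58.4 to 758 in the other 5 pools. Natural killer and innate lymphoid markers without Gzma went otherwise. They were highest in adipose pool 4 (61.3 CPM), where Egr1 was lowest, and at 0.691 and 20.2 CPM in arch pools 2 and 4. The part of those cells in these values was not tested. Adipose pool 1 and arch pools 2 and 4 were left out in an alternative chosen after seeing the data. There Egr1 differed from thymus by -4.34 in adipose tissue (limma, adjusted p = 0.00254) and by -2.49 in arch (0.103). Adipose pools 2 to 4, kept in it, had natural killer and innate lymphoid markers without Gzma at 17.9, 15.6 and 61.3 CPM. Within adipose tissue Nr4a1 was also highest in pool 1 (20685 against 8571 to 11515), and within arch it was highest in pool 1 (35068) and lowest in pool 2 (13679). Arch pool 1, kept in that alternative, had smooth muscle markers at 66.6 CPM. Its natural killer and innate lymphoid markers without Gzma were at 35.8 CPM. Its fibroblast markers were at 132 CPM (22.7 without Gsn, at most 3.83 in thymus) and its macrophage markers at 0.115 CPM. Arch pool 3, with 19383 Nr4a1 counts, had fibroblast markers at 125 CPM (88.9 to 298 in thymus) and macrophage markers at 3.16 CPM (at most 16.2 in thymus), while its smooth muscle markers, at 14.1 CPM, and its natural killer and innate lymphoid markers without Gzma, at 29.1 CPM, were above the thymus maxima of 3.31 and 0.0742. The part of such cells in the Nr4a1 values was not tested. Without the 3 pools Nr4a1 exceeded thymus by 5.61 in arch (adjusted p = 0.0347) and by 4.20 in adipose tissue (0.0795), and Nr4a2 by 7.03 in arch (0.0322). The adipose call of Egr1 was lost with edgeR (-2.71, adjusted p = 0.177) and without a filter on low values (-3.51, 0.0713), in a range of 0.00254 to 0.177 over 10 alternatives, and in 4 of 8 fits that left out a pool, those without thymus pools 1 and 2 (0.0816 and 0.0733) and adipose pools 3 and 4 (0.0753 and 0.0722). Its change was -2.83 without adipose pool 4 and -4.34 without adipose pool 1.

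Egr2 (chromosome 10, 67535475 to 67542188), which shares target sites with Egr1 and acts in natural killer T-cell development, varied from pool to pool within each tissue. It had 1149, 742, 0 and 84.1 normalised counts in thymus pools 1 to 4, 15.1, 0, 0 and 195 in adipose pools and 196, 9.51, 285 and 684 in arch pools. The 3 tissues overlapped. Its log2 changes of -0.11 ± 1.37 in arch (limma, adjusted p = 0.972) and -2.32 ± 1.37 in adipose tissue (0.538) against thymus did not pass, and the 95% interval of the arch change, -2.99 to 2.77, leaves its direction unknown.

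Egr3 (chromosome 14, 70077203 to 70082614), the third zinc finger factor, had reads in 1 of 12 pools. Adipose pool 1 had 79.6 normalised counts (137 reads) and the other 11 pools had 0, where 3 reads, the upper limit that a count of 0 allows, are worth 1.70 to 5.71 normalised counts per pool. Adipose pool 1 is also the pool with 1155 counts of Cd79a, a B-cell gene at 0 in the other adipose pools, and the part of those cells was not tested. Egr3 did not pass the filter on low values and was not tested between tissues.

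Set side by side, Nr4a1 exceeded Egr1 in each of the 8 pools outside the thymus and Egr1 exceeded Nr4a1 in each of the 4 thymus pools. The ratio of Nr4a1 to Egr1 normalised counts was 0.632, 0.369, 0.000641 and 0.199 in thymus pools 1 to 4, 11.5, 18.0, 99.5 and 147 in adipose pools, and 46.3, 6.76, 36.9 and 12.1 in arch pools. Both genes were higher in thymus pools 1 and 2 than in pools 3 and 4. The ratio is given as a description with no test.

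**Figure D2:**
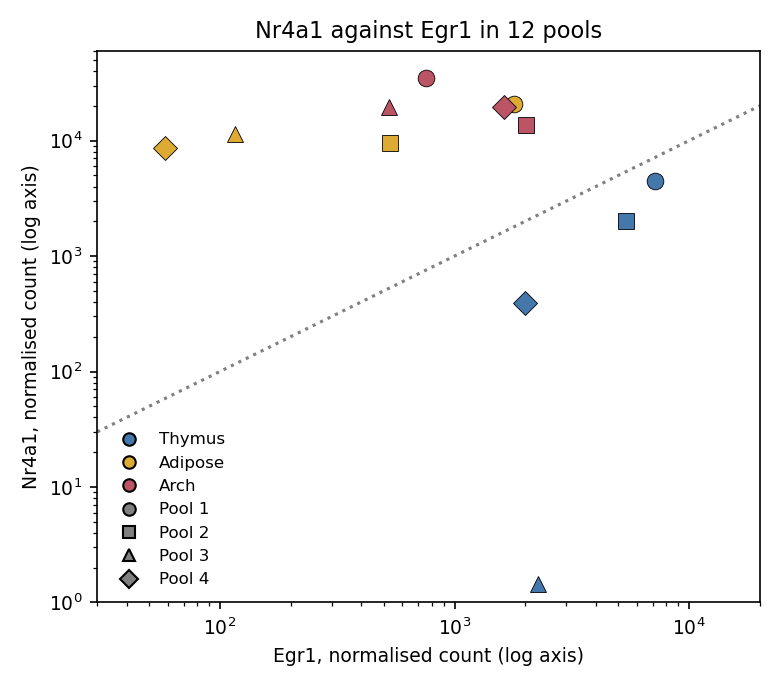
Nr4a1 (y axis) against Egr1 (x axis) in the 12 pools, as normalised counts on log axes, with tissue by colour and pool number by symbol. The dotted line marks equal counts: the 4 thymus pools lie below it and the 8 other pools above it, and thymus pool 3 has a single Nr4a1 read.

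The 3 membrane protein genes were transcribed in every pool. Cd5 (chromosome 19, 10717116 to 10739002), an inhibitory receptor that dampens receptor signal, had 9433, 6293, 5507 and 5480 normalised counts in thymus pools 1 to 4. It had 1922, 2401, 2257 and 484 in adipose pools and 1940, 1410, 2332 and 5816 in arch pools. All adipose pools and arch pools 1 to 3 lay below the thymus pools, and arch pool 4, the pool with fibroblast markers, lay within them. Cd5 was lower in adipose tissue than in thymus by a log2 change of -2.10 ± 0.49 (limma, adjusted p = 0.0208), with means of 1766 ± 878 and 6678 ± 1875 (SD, n = 4). In arch the change was -1.39 ± 0.49 (limma, adjusted p = 0.0941), and -1.80 without arch pool 4 (adjusted p = 0.0279).

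The adipose call of Cd5 was lost with edgeR (-1.88, adjusted p = 0.0727) and without a filter on low values (-2.10, adjusted p = 0.0733), in a range from 0.00144 over 10 alternatives. It was also lost without thymus pool 1 (0.0769) or adipose pool 4 (0.0672).

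Cd69 (chromosome 6, 129267325 to 129275436), a lectin-like receptor that keeps lymphocytes in tissue by opposing the egress receptor S1PR1, had 4750, 7031, 3255 and 1150 normalised counts in thymus pools 1 to 4. Adipose pools had 2506, 1888, 2659 and 304, and arch pools 3438, 12591, 7553 and 3430. All arch pools lay above all adipose pools, and the thymus pools overlapped both. Arch exceeded adipose tissue by a log2 change of 2.02 ± 0.64 with a ratio of means of 3.67. This did not pass over all genes (limma, adjusted p = 0.340), while the exact two-sided permutation test of this gene alone gave p = 0.0286, the smallest possible. Without adipose pool 4, the lowest of its tissue, the change was 1.31 (limma, adjusted p = 0.687). Against thymus the changes were 0.79 ± 0.64 in arch (limma, adjusted p = 0.498) and -1.24 ± 0.64 in adipose tissue (0.451). The highest arch value came from pool 2, which had smooth muscle and macrophage markers. Arch pool 3, with few of them, had 7553, and the part of those cells in the arch values was not tested.

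Itm2a (X chromosome, 107397099 to 107403376) showed no difference that passed. It had 10291, 6177, 1674 and 4530 normalised counts in thymus pools 1 to 4, 2389, 2543, 4020 and 2265 in adipose pools and 2174, 6106, 3864 and 4319 in arch pools. The 3 tissues overlapped. Its changes were -0.28 ± 0.45 in arch (limma, adjusted p = 0.755) and -0.78 ± 0.45 in adipose tissue (0.516) against thymus, with 95% intervals of -1.22 to 0.66 and -1.71 to 0.16.

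**Figure D3:**
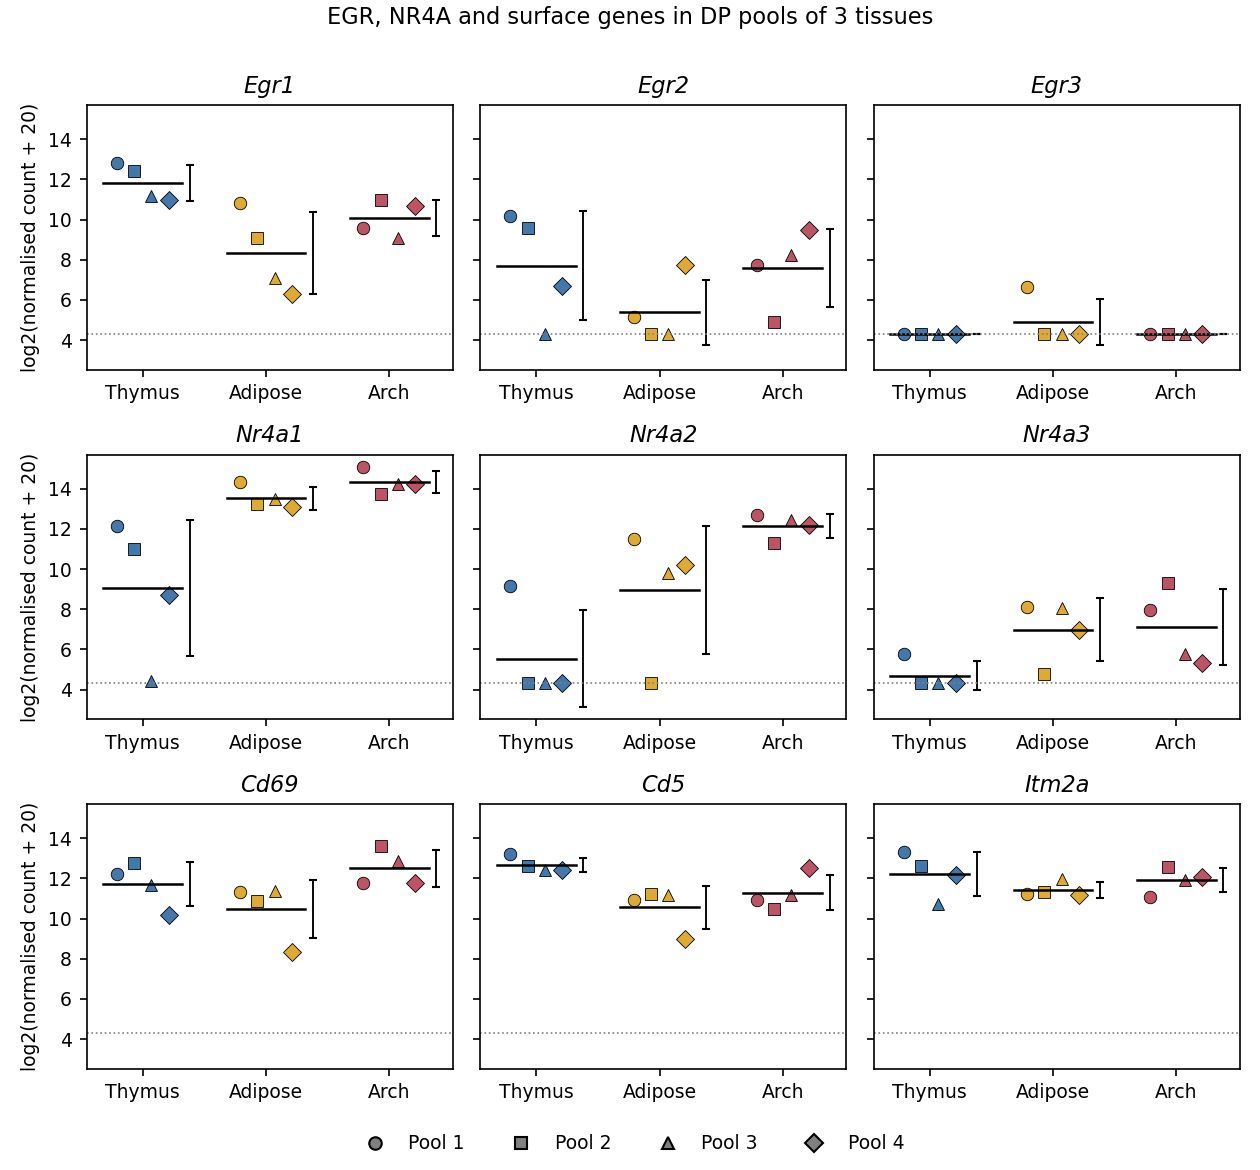
The 9 genes in each of the 12 pools as log2(normalised count + 20). Symbols are pools 1 to 4, the horizontal line is the mean of 4 pools, the bracket is 1 SD either side, and the dotted line marks a count of 0. Nr4a1 and Nr4a2 sit higher in arch than in thymus, Egr1 and Cd5 sit lower in adipose tissue than in thymus, and Egr3 has reads in 1 pool.

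Of the 9 genes, 8 passed the filter of at least 100 normalised counts in at least 4 pools. Nr4a2 and Nr4a3, with at most 1 thymus pool at that level, passed it through pools outside the thymus. They could hardly be called lower there, and Nr4a2 is 1 of the 2 calls in arch. In arch against thymus 2 of the 8 were called higher (Nr4a1 and Nr4a2) and 0 lower, where 6.57% of the 9106 genes tested were called (3.99% higher and 2.58% lower). In adipose tissue against thymus 1 was called higher (Nr4a1) and 2 lower (Egr1 and Cd5), where 2.84% of all tested genes were called (2.17% higher and 0.67% lower). Pools of 2 of the 8 genes, both higher, did not overlap between arch and thymus, as for 13.2% of all tested genes (6.6% higher and 6.64% lower). Pools of 3, 1 higher and 2 lower, did not overlap between adipose tissue and thymus, as for 10.5% of all tested genes (5.48% higher and 4.99% lower). The median log2 change over the 8 genes was 0.34 in arch and -1.01 in adipose tissue, against -0.20 and -0.01 over all genes tested. Both comparisons use the same thymus pools and are not independent.

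Between arch and adipose tissue limma called 0 of the 8 genes, edgeR 0 and DESeq2 0, where limma called 16 of 9106 genes (0.176%, of which 0.0988% higher and 0.0769% lower). At an unadjusted p under 0.05 limma had 954 of all 9106 tested genes, edgeR 584 and DESeq2 911. Of the 8 genes limma gave 3 (Cd69, Nr4a2 and Egr1), edgeR 1 and DESeq2 1. All 3 had higher means in arch: Nr4a2 by 3.19 ± 1.33 (limma, adjusted p = 0.426) and Egr1 by 1.77 ± 0.81 (0.468), beside Cd69 above. Nr4a1 differed by 0.81 ± 1.02 (limma, adjusted p = 0.818), with a 95% interval of -1.34 to 2.95. That SE also holds the spread of the thymus pools, which ran from -4.64 to 3.08 about their log2 mean. Against the same mean adipose pools lay at 4.01 to 5.28 and arch pools at 4.68 to 6.04. In a fit of arch and adipose tissue alone limma gave an adjusted p of 0.487. Pools did not overlap for 1 of the 8 genes, Cd69, as for 5.35% of all tested genes (2.46% higher and 2.89% lower).

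**Figure D4:**
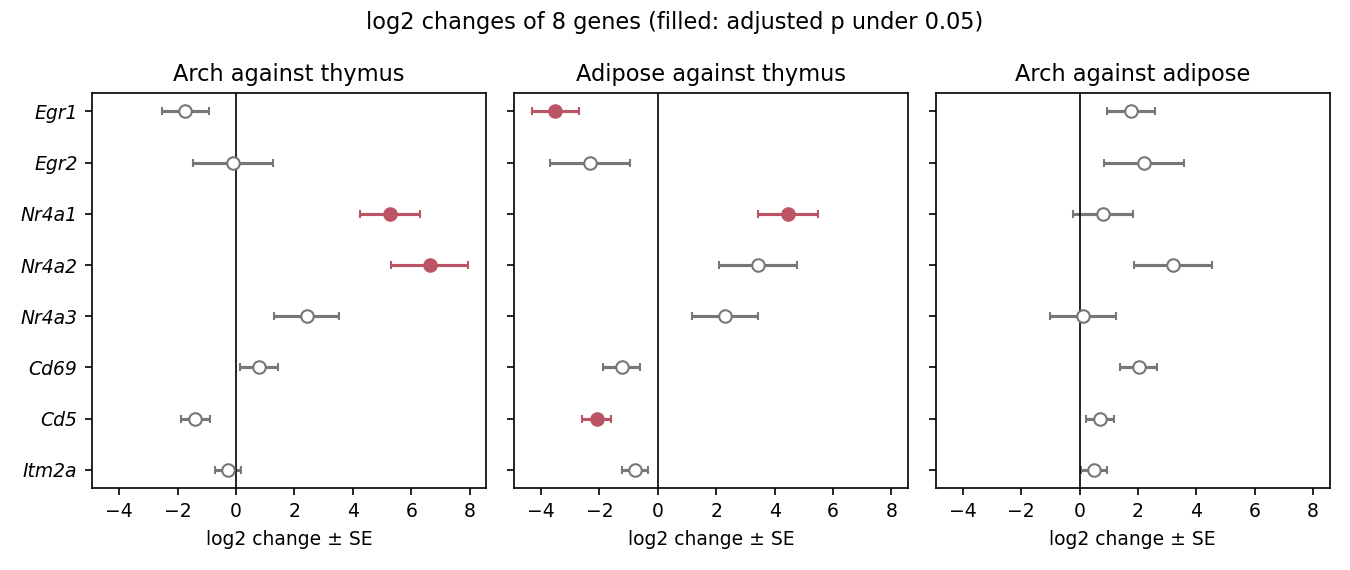
The log2 change (x axis) of the 8 genes tested in the 3 comparisons, with bars of 1 SE and filled points where the limma adjusted p is under 0.05. Filled points are Nr4a1 and Nr4a2 in arch against thymus and Nr4a1, Egr1 and Cd5 in adipose tissue against thymus.

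Levels per kilobase of exon (GENCODE M21 exon unions) put the genes in a different order in each tissue. In thymus Itm2a led with 3250 ± 2064 normalised counts per kb, followed by Cd5 (1355 ± 380), Egr1 (936 ± 555), Cd69 (622 ± 381), Nr4a1 (491 ± 582), Egr2 (145 ± 161), Nr4a2 (33.6 ± 67.3), Nr4a3 (1.47 ± 2.93) and Egr3 at 0 (SD, n = 4). Pools of each pair of neighbours in that order overlapped. In arch Nr4a1 led with 6248 ± 2616 and its pools lay above those of the next gene, Itm2a (2360 ± 927). Nr4a2 (1185 ± 422), Cd69 (1037 ± 668), Cd5 (583 ± 405), Egr1 (275 ± 158), Egr2 (86.4 ± 83.7) and Nr4a3 (38.03 ± 46.8) followed, each overlapping its neighbour. In adipose tissue Nr4a1 (3583 ± 1580) lay above Itm2a (1608 ± 469) and Itm2a above Cd5 (358 ± 178), without overlap of pools. Nr4a2 (304 ± 300), Cd69 (283 ± 165), Egr1 (139 ± 180), Nr4a3 (25.9 ± 20.1), Egr2 (15.4 ± 28.0) and Egr3 (4.52 ± 9.03) then overlapped from neighbour to neighbour.

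Other genes of the same routes moved in part. Of 45 tested genes induced by receptor signal in thymocytes, the 9 genes left out, 8 were higher and 4 lower in arch than in thymus (median log2 change -0.39, with 3.99% higher and 2.58% lower of all tested genes), and 4 higher and 2 lower in adipose tissue (median -0.04, with 2.17% and 0.67%). Bcl2l11, which encodes the death protein BIM, rose by 3.87 ± 0.40 in arch and 4.09 ± 0.40 in adipose tissue (limma, adjusted p = 5.89e-06 and 4.09e-06): its pools had 377 to 2756 normalised counts in thymus, 18233 to 24376 in adipose tissue and 14708 to 23305 in arch. Tnfaip3, an inhibitor of NF-kB signalling, rose by 1.98 ± 0.32 and 2.06 ± 0.32. Trib1 rose by 4.45 ± 0.94 in arch, and Dusp5, a phosphatase of ERK, by 3.40 ± 0.58 in adipose tissue. Cd27 fell by 1.26 in arch. Id3, an inhibitor of E proteins that is induced downstream of Egr1 during selection, was the list member called between arch and adipose tissue: it had 2553 to 5466 normalised counts in adipose pools, 7813 to 12970 in thymus pools and 8194 to 18497 in arch pools, and was higher in arch than in adipose tissue by 1.87 ± 0.29 (limma, adjusted p = 0.0128).

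Among 46 tested genes of the signal route from the receptor to EGR and NR4A genes, 5 were higher and 3 lower in arch than in thymus (median -0.45, with 3.99% and 2.58% of all tested genes), and 4 higher and 3 lower in adipose tissue (median 0.12, with 2.17% and 0.67%). Sik1, a kinase that restrains CREB coactivators, and Crem, a transcription factor acting at cyclic AMP response elements, had the smallest p-values of this list: Crem rose by 5.83 ± 0.31 in arch and 5.03 ± 0.31 in adipose tissue, Sik1 by 7.39 ± 0.66 and 6.50 ± 0.66. Crem had 412 to 663 normalised counts in thymus, 9139 to 22415 in adipose tissue and 23029 to 47576 in arch. Its pools lay above those of thymus in both, as did those of 6.6% of all tested genes in arch and 5.48% in adipose tissue. Orai1, a calcium channel subunit, rose by 5.23 ± 0.74 and 4.58 ± 0.74. Of 12 tested partners of the proteins, among them the EGR corepressors Nab1 and Nab2, limma called 0 in any of the 3 comparisons, and so did edgeR and DESeq2. At an unadjusted p under 0.05 limma had 2 in arch against thymus and 1 in each of the others, edgeR 1, 1 and 0, and DESeq2 2, 1 and 0 in arch against thymus, adipose tissue against thymus and arch against adipose tissue. In the same order limma had 2069, 1167 and 954 of all 9106 tested genes at that level. edgeR had 1406, 873 and 584 of them, and DESeq2 1881, 1171 and 911.

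The calls among immediate early and heat shock genes were all higher outside the thymus. Of all tested genes 3.99% were called higher in arch and 2.17% in adipose tissue. A gene near 0 in thymus passed the filter only through values outside it and could not be called lower there. Examples are Hspa1a and, of the signal route, Sik1 (at most 4.53 normalised counts in thymus). The direction of the calls is in that part set by the filter, which edgeR and DESeq2 shared. Of 25 tested immediate early genes outside the 2 families, 11 were higher and 0 lower in arch than in thymus (median 2.43). In adipose tissue 7 were higher and 0 lower (median 1.83), and edgeR and DESeq2 also called 0 lower. The unadjusted limma p was under 0.05 in either direction for 13 and 11, against 2069 and 1167 of all 9106 tested genes. Among the higher immediate early genes were Fosl2 (7.54 ± 0.62 and 7.25 ± 0.62) and Junb (4.26 ± 0.43 and 3.19 ± 0.43). Of 16 tested heat shock genes 13 were higher in arch and 7 in adipose tissue than in thymus, 8 were higher in arch than in adipose tissue (0.0988% of all tested genes), and 0 were lower in any of the 3. edgeR and DESeq2 also called 0 of them lower. Over all 9106 tested genes limma had 2069, 1167 and 954 at an unadjusted p under 0.05 in either direction. It had 15, 12 and 15 of the 16 heat shock genes. Their summed level was 4188 to 9821 CPM in thymus, 7990 to 18513 in adipose tissue and 40615 to 47185 in arch, and Hspa1a, an inducible HSP70 gene, was at 0 in thymus and at 3340 to 9579 normalised counts in arch. The part of a heat shock or stress response in the NR4A values was not tested. Of 22 tested sort and stage genes, 9 were lower and 1 higher in each comparison with thymus (median -0.99 in arch and -0.98 in adipose tissue, where 2.58% and 0.67% of all tested genes were lower), with Cd8b1 at -1.47 ± 0.22 and -1.62 ± 0.22 and Satb1 at -1.38 ± 0.14 and -1.17 ± 0.14.

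**Figure D5:**
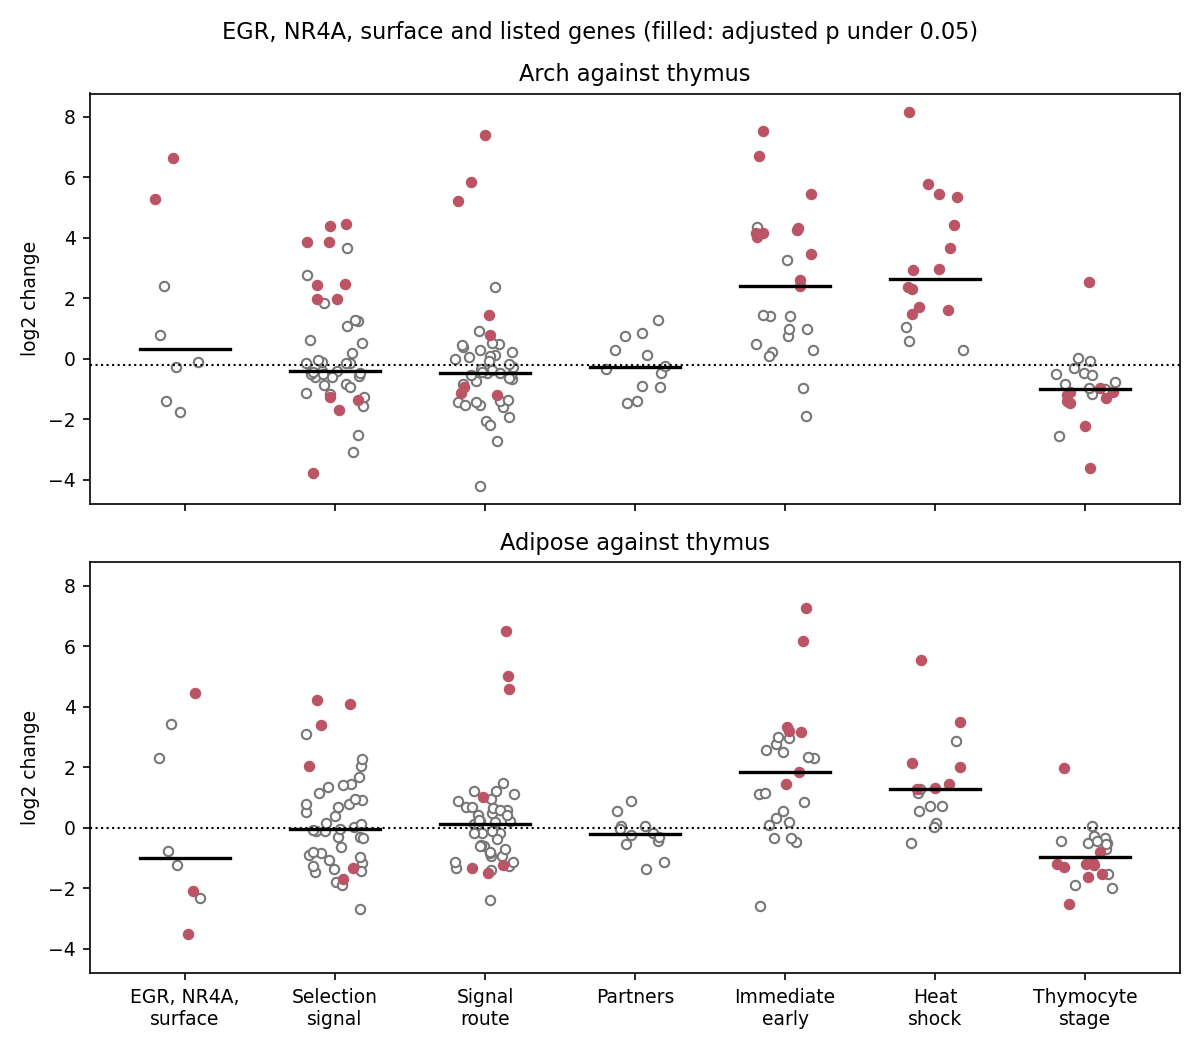
The log2 change against thymus of the 8 genes and of 6 gene lists, 1 point a gene, filled where the limma adjusted p is under 0.05. Thick lines are list medians and the dotted line is the median of all genes tested. Lists of immediate early genes (medians 2.43 and 1.83) and heat shock genes (2.66 and 1.28) lie above that line, and the stage genes (-0.99 and -0.98) below it.

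The genes whose profile over the 12 pools lay nearest were found by the root mean square difference of log2 values, each centred on its thymus mean. For Nr4a1 they were Orai1 (a difference of 0.998), Nup98 (1.24) and Ppp1r15a (1.36), beside a root mean square excursion of 4.36 for Nr4a1 itself. For Nr4a2 they were Ccdc109b (1.29), Klf11 (1.55) and Klf2 (1.75), and for Egr1 Faah (1.19), St3gal6 (1.27) and Sipa1 (1.27). Cd69 lay nearest to Id3 (0.836), Sip1 (0.844) and 1810013L24Rik (0.867), and Cd5 to Sytl3 (0.534), Cd52 (0.633) and Sept9 (0.703). None of the 8 genes with a profile was among the 3 nearest of another of them.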

How the data were processed

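The deposited table held 1 normalised signal per gene and pool, and the libraries of a pool had been joined by the authors. The submitters' processing notes name FastQC 0.11.5, STAR 2.6.0c and GRCm38. Which tool counted the reads, on which annotation and with which strand setting is not given in the sources used here. All values above 0 (100%) were whole multiples, within 0.01, of the smallest value of their column, taken as 1 read. The number of columns not matched to a pool was 0. The libraries were amplified for 18 cycles, read as 50 bp single ends and carry no molecular identifiers, so read floors cover counting error only.

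Because the unit is a signal and not a count, the main test was limma 3.58.1 (R 4.3.3) with an intensity trend on log2(normalised count + 20). Genes with at least 100 in at least 4 of 12 columns were tested (9106), in 1 fit with tissue as its only term, and were called at a Benjamini-Hochberg adjusted p under 0.05 over all genes tested. The pseudocount understates changes of low genes. Single genes were also compared by exact two-sided permutation over 70 assignments of 8 pools. edgeR 4.0.16 and DESeq2 1.42.0 on recovered reads were alternatives, beside other pseudocounts (5 and 100), no filter, TMM scaling, fits of 2 tissues, the pool number as a block, and left-out pools. The fit was tested on simulated data.

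The 9 genes and the gene lists were chosen with earlier results of these data known. All 9 genes are named with every pool. From each list at most 4 called genes per comparison with the smallest p were named (some that this rule names are not reported here), and nearest profiles were named for 5 genes. Gene positions and exon lengths come from GENCODE M21 and promoters from RefSeq, both on GRCm38.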

Additional observations from a re-analysis of the deposited data

Results flagged for a closer look

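A pool was singled out where its gap to the nearest of the other 3 pools of its tissue, divided by the range of the 4, was above Dixon's 95% critical value for 4 samples. Of 25 sets of 4 pools tested, 5 passed. The chance rate of 1 in 20 holds for normally distributed values and cannot be applied to these skewed counts with zeros. Where all other pools have 0, any count gives a ratio of 1 and passes, as for Nr4a2 and Nr4a3 in thymus and Egr3 in adipose tissue. In 4 of the 5 the gene had no reads in at least 2 of the other pools. In thymus, pool 1 stood apart with 546 normalised counts of Nr4a2 and 35.1 of Nr4a3, where the other 3 pools had 0. In adipose tissue, pool 1 stood apart with 79.6 counts of Egr3 against 0 in the other 3, and pool 4 with 195 counts of Egr2 against 15.1, 0 and 0. Itm2a in adipose pool 3, at 4020 normalised counts, stood apart from 2265 to 2543 in the others.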

How the results depend on the processing

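Over 10 alternatives and 8 fits that left out a pool, log2 changes kept their sign except for Egr2 and Itm2a in arch against thymus and Nr4a3 in arch against adipose tissue, none of which passed in any fit. Egr2 in arch against thymus turned to 0.15 with a pseudocount of 5 and 0.31 without adipose pool 1 and arch pools 2 and 4, and ran from -1.23 to 0.79 with single pools left out, at 0.72, 0.52 and 0.79 without thymus pool 1, thymus pool 2 and arch pool 2. Itm2a in arch against thymus ran from -0.77 to 0.10, the last without thymus pool 1. Nr4a3 in arch against adipose tissue was -0.10 without arch pools 2 and 4 and thymus pool 3, and ran from -0.62 to 0.71, at -0.62, -0.18 and -0.62 without adipose pool 2, arch pool 1 and arch pool 2. The causes were not tested.

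In arch against thymus 2 of the 8 genes were higher, against 0 with edgeR and 1 with DESeq2. At an unadjusted p under 0.05 edgeR had 1406 of all 9106 tested genes and 3 of the 8. Leaving out single pools gave 2 of the 8 higher throughout, and 0 to 1 lower. In adipose tissue against thymus the 1 higher gene became 0 with a pseudocount of 5, no filter, edgeR and DESeq2. It also became 0 without adipose pool 1 and arch pools 2 and 4. The 2 lower genes became 0 with no filter and with edgeR. At an unadjusted p under 0.05 of either direction edgeR had 873 of all 9106 tested genes and DESeq2 1171. Of the 8 genes edgeR had 4 and DESeq2 5 at that level. Leaving out single pools gave 0 to 2 higher and 0 to 2 lower. Without arch pools 2 and 4 and thymus pool 3, the pools with the fewest reads per library, Itm2a also passed in adipose tissue against thymus (-1.27, limma adjusted p = 0.0451). Without adipose pool 1 and arch pools 2 and 4, Nr4a3 no longer passed the filter.

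Over all genes the 598 calls in arch against thymus became 365 with edgeR, 1007 with DESeq2, 318 without arch pools 2 and 4 and thymus pool 3, and 354 without adipose pool 1 and arch pools 2 and 4. The 259 in adipose tissue against thymus became 539 with DESeq2. The 16 in arch against adipose tissue became 9 with a pseudocount of 5, 2 with no filter, 8 with edgeR, 168 with DESeq2 and 0 without either set of 3 pools. Leaving out single pools gave 405 to 623, 169 to 247 and 2 to 14. The share of calls that were higher in arch than in thymus was 60.7%, and 76.2% with edgeR.

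Whether same-numbered pools share mice cannot be told from these values. Their deviations correlated at r = -0.03 to 0.08 over 12 pairs, with 0 over 0.1, and 5 pools correlated best with their own number. Nr4a1 and Nr4a2 were each highest in pool 1 of all 3 tissues, the pool with 3 libraries. With the pool number as a replicate block limma called 608, 243 and 12 genes, and the same counts of the 8 genes, 2 and 0, 1 and 2, and 0 and 0 higher and lower. The limma adjusted p of Cd69 in arch against adipose tissue moved from 0.340 to 0.0890 with this block. In adipose tissue against thymus Egr1 moved from 0.0199 to 0.00853, Nr4a1 from 0.0186 to 0.00732 and Cd5 from 0.0208 to 0.0415. Where a pool had 0 reads, a level of up to 3 reads, worth 1.70 to 5.71 normalised counts, could not be told from 0, and 4 pools against 4 cannot give an exact permutation p below 0.0286.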
